A study of Mus musculus with 16 samples.

Results

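The arrays described here are the 8 taken 10 weeks after transverse aortic constriction (TAC), out of 16 arrays in the series. They are 4 left ventricles of alpha-MHC-NOS3 mice (NOS3-TG) and 4 of wild-type littermates (WT), and were chosen by the time and operation in their titles. TAC is a surgical narrowing of the aorta that puts the left ventricle under pressure overload. The transgene for nitric oxide synthase 3 (NOS3) is driven by the promoter of alpha-myosin heavy chain, a cardiomyocyte gene. All mice had a C57BL/6 N background, with the transgenic line backcrossed for 7 generations, and were matched for age and weight, per the labels. Each group held 2 males (replicates 1 and 3) and 2 females (replicates 2 and 4), so every set of values below runs male, female, male, female. The other 8 arrays, from intact NOS3-TG and WT mice of the same design, gave the comparison of the genotypes without load. The labels do not say whether the transgenic mice came from 1 founder, nor which species' NOS3 sequence they carry.

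NOS3 is the enzyme that makes nitric oxide in endothelial cells. Nitric oxide activates soluble guanylate cyclase, and the cyclic GMP it makes acts through protein kinase G, which in cardiomyocytes dampens contraction and growth signalling. NOS3 needs calmodulin and the cofactor tetrahydrobiopterin. When the cofactor is short, the enzyme releases superoxide instead, and nitric oxide with superoxide forms peroxynitrite. The question put by the design is which ventricular transcripts differ under load when cardiomyocytes carry extra NOS3.

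Total RNA came from a mid-ventricular ring of tissue, was labelled with Cy3 and was read on one-colour Agilent arrays. All levels below are log2 processed signal minus the array's own 75th percentile, so 0 is a level that most probes do not reach. That percentile lay between 1097 and 1491 intensity units on the 8 TAC arrays. Between 51.29% and 53.05% of probes were well above background on 6 of them, 46.18% on NOS3-TG replicate 3 and 68.06% on NOS3-TG replicate 4. Means of this share were 55.0% in NOS3-TG and 52.2% in WT (exact permutation test, two-sided p = 0.6, with 0.0286 the smallest p the 4 against 4 design allows). On each slide NOS3-TG arrays sat at positions 1 and 2 and WT arrays at positions 3 and 4, so array position and genotype cannot be told apart. Within each genotype the male array took the lower position and the female array the higher, which ties sex to position too. In whole tissue, fewer cells of a type and less RNA per cell cannot be told apart either.

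Nos3 itself was the gene with the largest difference. Loaded NOS3-TG ventricles read 6.94, 7.77, 7.27 and 7.55, and loaded WT ventricles 1.67, 1.73, 1.51 and 1.85. The groups were far apart, with less than 1 log2 unit of spread inside either. The fitted difference was 5.69 ± 0.12 (log2 ± SE, limma, n = 4 and 4, adjusted p = 3.89e-10), a 51.7-fold excess. It was 5.51 in males and 5.87 in females, 5.66 on one slide and 5.73 on the other. The probe may read the transgene and the mouse gene together, and how well it matches the transgene could not be checked.

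Of 15670 genes tested, 74 passed an adjusted p under 0.05 (limma with Benjamini-Hochberg adjustment), 0.472% of those tested. They split into 64 higher (0.408%) and 10 lower (0.0638%) in NOS3-TG. By size, 33 of the 64 were over 2-fold higher and 3 of the 10 over 2-fold lower. Without any adjustment, 2131 genes had p under 0.05 (13.6%). The median difference over all genes was 0.01, and the median standard error was 0.12. In 64 of the 74 called genes all 4 arrays of one genotype lay above all 4 of the other, a pattern that 565 of all genes showed upwards (3.61%) and 305 downwards (1.95%). Every one of the 74 had the same sign in both sexes and on both slides, and in all 4 pairs of the same slide and sex. Of all genes, 12.9% were higher and 8.96% lower in all 4 pairs. The 74 were selected on these same arrays, so this agreement is no separate support. Of the 74, 59 have a RefSeq name and chromosome, with at most 6 on one (chromosomes 7 and 8).

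The number of calls rested heavily on each animal. Leaving out NOS3-TG replicate 1, 2, 3 or 4 left 45, 7, 16 or 12 calls, and leaving out WT replicate 1, 2, 3 or 4 left 11, 20, 27 or 34. Without NOS3-TG replicates 3 and 4, whose shares of detected probes lay apart, 3 genes were called, in a contrast that then rests on the 4 arrays of slide 2. Only 6 genes kept their call whichever single TAC array was left out: Nos3, Snhg11, Mei1, 1700020L24Rik, Zfp296 and a transcript that the files name by accession. A further 26 genes kept it in none of these 8 fits. The count also fell to 2 when the 8 TAC arrays were fitted alone, to 6 with no filter on dim probes, to 19 with no sex term and to 25 with normexp background correction. With each pair of arrays of the same slide and sex as a block, an alternative added after the data were seen, 60 genes were called, 34 of them among the 74. Among genes named below, that block ended the calls of Gsta1, Gsta2, Gstm2, Igtp, Ifi27, Apol9b, Slc24a2, Krtap6-1, Tdrd9, Fam181b, Dubr and Bcl2, at limma adjusted p from 0.059 to 0.0895. Most differences described next are called at adjusted p values close to 0.05. Of the 74, 71 kept their sign under every setting tried, although the size of dim genes did not hold.

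**Figure D1:**
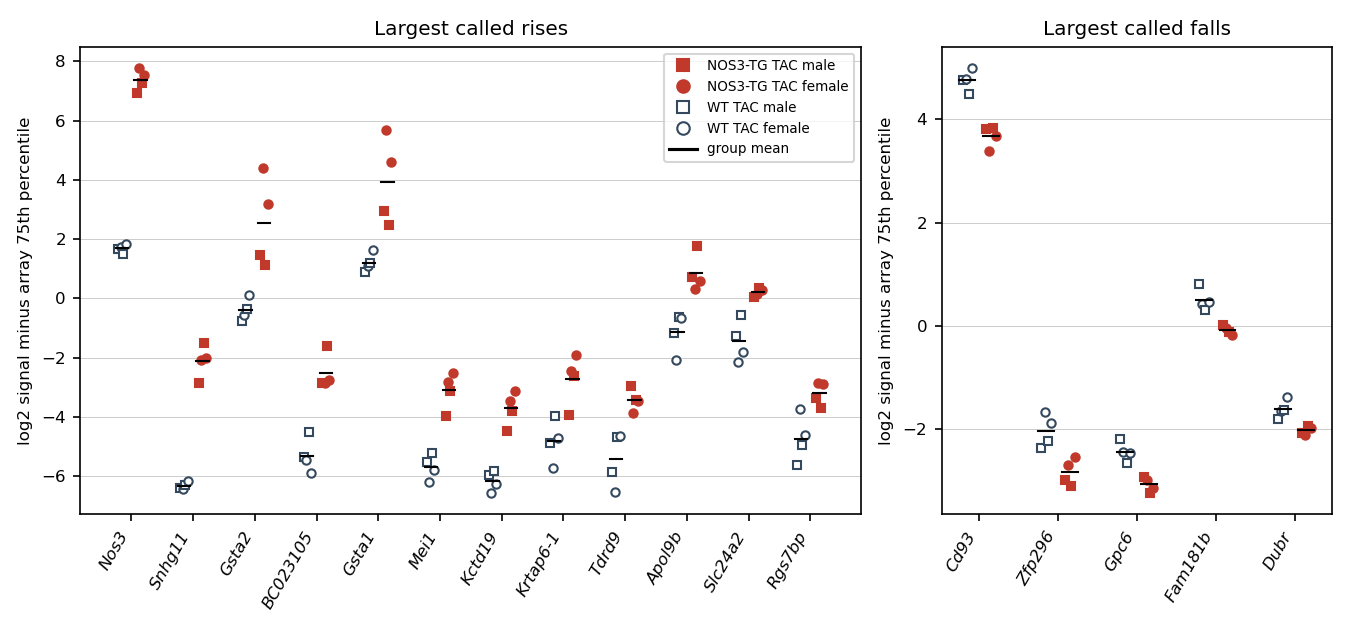
Level of each gene on every TAC array (log2 signal minus the array's 75th percentile) for called genes with the largest rises (left) and falls (right; 1 left out); filled symbols are NOS3-TG, open symbols WT, squares males, circles females, and bars group means. Nos3 stands between 6.94 and 7.77 in NOS3-TG against 1.51 to 1.85 in WT, and Gsta1 and Gsta2 are higher in the 2 NOS3-TG females than in the 2 NOS3-TG males.

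After Nos3, the largest rise was that of Snhg11, a long noncoding RNA that hosts small nucleolar RNAs and is best known from neurons. Its levels were -2.84, -2.07, -1.51 and -2.01 in loaded NOS3-TG ventricles and -6.39, -6.43, -6.31 and -6.16 in loaded WT ventricles. No WT array read it well above background, so its fold is a bound: it was at least 4.09-fold higher in NOS3-TG (adjusted p = 0.00179 in the fit). For such a bound, each dim array counts at its faintest well-detected probe, or at its own reading of the gene where that is brighter, and the bright group's mean is set against the mean of these. The 3 other Snhg11 probes were higher too, by 1.16 to 2.82. Without single arrays the adjusted p stayed at or under 0.0173, and without NOS3-TG replicates 3 and 4 together it was 0.108. Snhg11 was well above background on NOS3-TG arrays alone, in intact mice too. It thus passed the filter of 4 detected arrays out of 16 through that genotype, and its p values are not independent of the filter. Under normexp, which adds a constant to every signal and so shrinks differences of dim probes, its fitted difference was 1.65 on the log2 scale (adjusted p = 0.143), below the bound.

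Of the genes of the imprinted Snrpn region that carry a gene symbol, Snrpn alone was called. Snrpn transcripts come from the paternal allele. A transcript without a symbol, annotated as exon D of the Ipw gene, was called too (limma adjusted p = 0.0444). For it, 2 NOS3-TG and 0 WT arrays were well above background after TAC, so its fold is not given. In intact mice these counts were 4 and 0. It thus passed the filter through NOS3-TG arrays alone, and its p values are not independent of the filter. It lost the call in all 8 single omissions (limma adjusted p 0.0535 to 0.151). Snrpn, a spliceosomal protein gene, read 1.92, 3.02, 2.69 and 2.60 in NOS3-TG and 1.23, 1.28, 1.25 and 0.93 in WT. No array of one genotype overlapped the other, and the difference was 1.39 ± 0.21 (adjusted p = 0.0312), with its other probe at 1.46. Only without NOS3-TG replicate 1 did it keep the call, and the adjusted p otherwise reached 0.102. Snhg14, the long noncoding RNA downstream of Snrpn, differed by 1.58 ± 0.35 (adjusted p = 0.0816; its other probe gave -0.01) and Snurf, which shares a transcript with Snrpn, by 0.83 ± 0.31 (adjusted p = 0.264). In Snurf the WT female replicate 4 read 2.02, above all 4 NOS3-TG arrays. Peg3, another paternally expressed gene of chromosome 7, differed by 1.51 ± 0.48 (adjusted p = 0.199), from -3.50, -2.48, -1.89 and -3.63 in NOS3-TG against -3.72, -4.15, -4.72 and -4.94 in WT. Of the 24 measured imprinted genes and nuclear noncoding RNAs on the list, Snhg11 and Snrpn were called, 8.33% beside 0.472% of all genes. This list, like those below, was chosen with earlier results of these data known, so its share of calls is no separate support. An unadjusted limma p under 0.05 was found for 33.3% of the list, beside 13.6% of all genes. The median of the list was 0.04 beside 0.01 for all genes. Ndn and Ube3a, also of the Snrpn region, differed by 0.04 ± 0.10 and 0.03 ± 0.11 (adjusted p = 0.917 and 0.953).

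Most of the other large rises were of dim transcripts. Mei1, a gene of meiotic recombination, read -3.95, -2.82, -3.12 and -2.53 in NOS3-TG and -5.52, -6.19, -5.23 and -5.78 in WT, where no array was well above background. It was at least 2.05-fold higher (adjusted p = 0.00267) and kept its call without any single TAC array (highest adjusted p 0.0209). BC023105 was at least 3.08-fold higher (adjusted p = 0.0208), Krtap6-1, a hair keratin-associated protein gene, at least 2.57-fold (adjusted p = 0.0374), Rgs7bp, which anchors regulators of G protein signalling, at least 1.75-fold (adjusted p = 0.048), Tdrd9, a germ line RNA helicase, at least 1.64-fold (adjusted p = 0.0469) and Kctd19, a meiotic protein gene, at least 1.35-fold (adjusted p = 0.0245). WT TAC arrays were not well above background for any of these. In all, 12 of the 64 rises were of that kind. Of the 4 NOS3-TG TAC arrays, Kctd19 was well above background on 2, and Mei1, Rgs7bp and Tdrd9 on 3. Their group means thus include readings not well above background. A probe was tested when well above background on 4 of 16 arrays. Mei1, Krtap6-1 and Tdrd9 met that filter on NOS3-TG arrays alone, so their p values and calls are not independent of it. BC023105 and Kctd19 had 1 WT array besides, in intact mice. Their NOS3-TG arrays met the filter without it, so the same limit holds for their p values and calls. The other probe of Krtap6-1 gave -0.16. These bounds hold for the processed signal only. Under normexp the fitted log2 differences were 0.58 for Mei1, 0.98 for BC023105, 0.74 for Krtap6-1, 0.44 for Kctd19, 0.31 for Tdrd9 and 0.11 for Rgs7bp, none called (adjusted p 0.334 to 0.883) and all but that of Kctd19 under the bound. BC023105, Krtap6-1, Rgs7bp, Tdrd9 and Kctd19 each lost the call without at least NOS3-TG replicate 2, with limma adjusted p between 0.0851 and 0.166. Tdrd9 lost it in each of the 8 single omissions.

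Slc24a2, a sodium, calcium and potassium exchanger, was above background on every array. It read 0.04, 0.16, 0.36 and 0.29 in NOS3-TG and -1.27, -2.16, -0.55 and -1.82 in WT, a difference of 1.66 ± 0.30 (adjusted p = 0.0463). The NOS3-TG arrays lay close together and the WT arrays spread widely below them. Ryr3, the minor ryanodine receptor isoform of calcium release, differed by 0.92 ± 0.14 (adjusted p = 0.0305), and its other probe by 0.66. Without single arrays, Slc24a2 lost its call in all 8 fits (adjusted p 0.0537 to 0.159) and Ryr3 in 5 of them (up to 0.0851).

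Glutathione transferases, enzymes that couple glutathione to electrophiles and lipid peroxidation products, held 4 of the 64 rises. Of 24 measured members 4 were called, all higher, or 16.7% beside 0.472% of all genes. Gsta2, an alpha-class enzyme, read 1.47, 4.39, 1.14 and 3.20 in NOS3-TG and -0.76, -0.57, -0.36 and 0.13 in WT. Every NOS3-TG array was above every WT array, and the 2 females were the highest. The difference was 2.93 ± 0.50 (adjusted p = 0.0394), 7.65-fold. Gsta1, its neighbour on chromosome 9, read 2.95, 5.67, 2.49 and 4.61 in NOS3-TG and 0.88, 1.08, 1.18 and 1.65 in WT. That was a difference of 2.73 ± 0.47 (adjusted p = 0.042). The coding sequences of these paralogues are near-identical, so their probes may read both transcripts and the pair may be a single signal.

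Of the mu class, Gstm3 read 6.25, 7.40, 6.37 and 7.13 in NOS3-TG and 5.58, 6.09, 5.67 and 5.65 in WT, a difference of 1.04 ± 0.18 (adjusted p = 0.0422). Gstm2 read 5.06, 6.02, 5.16 and 5.69 against 4.44, 4.59, 4.66 and 4.65, a difference of 0.90 ± 0.16 (adjusted p = 0.0444). Both separated the genotypes without overlap. Gsta4, which detoxifies 4-hydroxynonenal, at 0.89 ± 0.18 (adjusted p = 0.0664), and Gstm1, at 0.83 ± 0.18 (adjusted p = 0.0733), fell just short of the threshold. The remaining 18 members lay between -0.11 and 0.67, so that the median of the family was 0.16. The called enzymes thus belong to the alpha and mu classes, while Gstp1 of the pi class differed by -0.04 ± 0.10 (adjusted p = 0.905), Gstk1 of the kappa class by -0.04 ± 0.15 and Gstt1 of the theta class by 0.05 ± 0.12.

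The size of these rises went with sex, and so with array position, in the 4 animals of each genotype. Gsta2 differed by 1.86 in males and 4.01 in females, Gsta1 by 1.69 and 3.78, Gstm3 by 0.68 and 1.40, Gstm2 by 0.55 and 1.24. The test of that difference between sexes did not pass for any of them (interaction adjusted p = 0.54, 0.54, 0.555 and 0.57). The family's count of calls also moved with single arrays. It was 6 without NOS3-TG replicate 1, 2 without NOS3-TG replicate 3, and 0 without any one of NOS3-TG replicates 2 and 4 or the 4 WT arrays. With the slide and sex pair as a block it was 1, Gstm3. Over these omissions the adjusted p of Gsta1 and Gsta2 reached 0.12, that of Gstm3 0.127 and that of Gstm2 0.133.

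**Figure D2:**
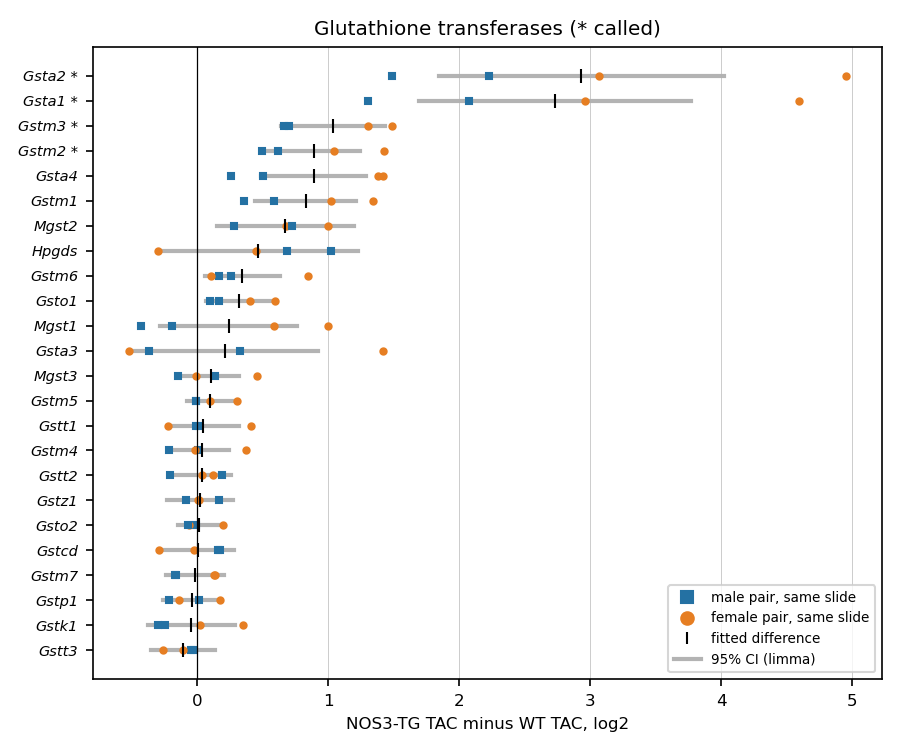
Difference between NOS3-TG TAC and WT TAC (log2) for the 24 measured glutathione transferases; squares are the male pair and circles the female pair of each slide, ticks the fitted difference and bars its 95% confidence interval from limma, and a star marks a called gene. For Gsta1, Gsta2, Gsta4, Gstm1, Gstm2 and Gstm3 all 4 pairs are above 0 and the circles lie to the right of the squares.

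Many glutathione transferase genes are targets of NRF2, a transcription factor that electrophiles release from its inhibitor KEAP1 and that binds antioxidant response elements. Of 29 measured NRF2-controlled redox genes none was called, but 24 were on the higher side, 15 had an unadjusted p under 0.05 (51.7% beside 13.6% of all genes) and the median was 0.24. Nqo1, a quinone reductase and a standard marker of NRF2 activity, read 3.91, 4.48, 3.95 and 4.17 in NOS3-TG and 3.40, 2.98, 3.70 and 3.27 in WT. These did not overlap, and the difference was 0.79 ± 0.17 (adjusted p = 0.0733), 0.38 in males and 1.20 in females. Aox1, an aldehyde oxidase, differed by 0.64 ± 0.22 (adjusted p = 0.231), the glutathione synthesis subunit Gclm by 0.44 ± 0.17 (adjusted p = 0.273) and the heme oxygenase Hmox1 by -0.04 ± 0.13 (adjusted p = 0.932). On intact arrays, 7 members of this list were called. Their fitted differences there were larger than after TAC for Hmox1 (0.71), Srxn1 (1.00 against 0.31), Gclm (1.03) and Osgin1 (1.03 against 0.37), without a called interaction. Superoxide and peroxide enzymes had a median of 0.03, and the NADPH oxidase and xanthine dehydrogenase genes one of -0.11, with no member called in either list.

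The promoters of the paired alpha-class genes are shown because the 2 genes rose together, and capitals would mark a core antioxidant response element, TGACNNNGC, on either strand. Both are windows of 250 bases up to the transcription start, from RefSeq on GRCm38.p6, 5′ to 3′ in the direction of the gene (Gsta1 at chr9:78230419-78230668, plus strand; Gsta2 at chr9:78347146-78347395, minus strand).
Gsta1: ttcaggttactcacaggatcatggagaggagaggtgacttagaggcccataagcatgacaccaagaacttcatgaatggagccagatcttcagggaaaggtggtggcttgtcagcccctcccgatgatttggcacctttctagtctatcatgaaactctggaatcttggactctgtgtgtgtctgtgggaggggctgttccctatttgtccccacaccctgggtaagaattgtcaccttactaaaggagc
Gsta2: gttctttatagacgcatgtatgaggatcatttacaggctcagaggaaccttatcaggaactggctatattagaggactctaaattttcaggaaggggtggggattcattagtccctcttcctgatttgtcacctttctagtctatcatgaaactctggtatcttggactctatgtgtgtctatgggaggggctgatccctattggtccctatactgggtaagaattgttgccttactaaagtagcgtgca
In a global alignment the windows shared 190 of 266 columns, 71.4%. Neither holds TGACNNNGC, nor do those of Gstm2 and Gstm3, which says only that these letters are not in these windows. The motif stood in 4 of 22 glutathione transferase genes with a window (18.2%), in 5 of 25 NRF2-controlled genes (20.0%) and in 11.5% of all 27025 genes.

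Interferon-stimulated genes formed the most even shift. These genes are induced when interferons bind their receptors, and many code for antiviral sensors and GTPases. All 31 measured members were on the higher side in NOS3-TG, beside 51.7% of all genes. Their median difference was 0.54, 22 had an unadjusted p under 0.05 (71.0% beside 13.6%), and in 9 every NOS3-TG array lay above every WT array, which held for 3.61% of all genes. Of the 31, 3 were called (9.68% beside 0.472% of all genes), among them Ifi27 and Igtp.

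Igtp, an interferon-inducible GTPase of the cell-autonomous defence, read 3.71, 4.03, 4.94 and 4.29 in NOS3-TG and 2.84, 2.75, 3.22 and 3.33 in WT. The lowest NOS3-TG array was above the highest WT array, and the difference was 1.21 ± 0.21 (adjusted p = 0.0463). Ifi27 read 4.39, 4.47, 4.77 and 4.28 against 3.53, 3.21, 3.31 and 3.66, a difference of 1.06 ± 0.17 (adjusted p = 0.0374). Its other probe gave 0.33.

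Members short of the threshold that also separated the genotypes included Ifit1, which binds foreign RNA caps, at 1.19 ± 0.24 (adjusted p = 0.0661), Ifit3 at 0.99 ± 0.23 (adjusted p = 0.0921), the GTPase Irgm1 at 0.70 ± 0.15 (adjusted p = 0.0763) and Usp18, a brake on the interferon receptor, at 1.09 ± 0.29 (adjusted p = 0.141). Cxcl10, the chemokine with the widest difference of the list, stood at 1.31 ± 0.56 (adjusted p = 0.335), and on one slide its female pair pointed the other way. Transcription factors of the pathway ranged from Irf7 (1.04 ± 0.28, adjusted p = 0.139) down to Irf9 (0.19 ± 0.11) and Irf1 (0.06 ± 0.13). Apol9b, an interferon-inducible apolipoprotein L gene outside the fixed list but among the largest called rises, read 0.71, 0.31, 1.78 and 0.61 in NOS3-TG and -1.17, -2.06, -0.63 and -0.66 in WT, a difference of 1.98 ± 0.37 (adjusted p = 0.0469). Tbk1, a kinase that triggers type I interferon production, differed by 0.63 ± 0.10 (adjusted p = 0.0312) with 0.09 on its other probe, and was picked out after its value was seen.

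Set against single animals, the shift was uneven. Mean deviations of the list from each gene's average were 0.32, -0.04, 0.68 and 0.19 on the NOS3-TG arrays and -0.33, -0.62, -0.20 and 0.01 on the WT arrays. NOS3-TG female replicate 2 thus lay below WT female replicate 4, although each NOS3-TG array was above the WT array of its own sex and slide. Summed levels of the list (in multiples of the array's 75th percentile) did not overlap, at 119 to 193 in NOS3-TG and 80.5 to 106 in WT. Fitted medians were 0.72 in males and 0.32 in females, 0.44 on one slide and 0.49 on the other. Without any single array between 29 and 31 of the 31 genes stayed positive and the median stayed between 0.45 and 0.60. The calls did not: 1, Ifi27, was left without WT replicate 4 and 0 without any of the other 7, with adjusted p up to 0.159 for Igtp. With the slide and sex pair as a block 0 were left as well.

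Beside the interferon list, immune cell markers showed no called difference. Lymphocyte and natural killer cell markers had a median of 0.44, with 10 of 12 measured genes higher and none called. Their summed level was 3.23 to 5.39 in NOS3-TG and 2.49 to 4.26 in WT, and their mean deviation was highest on NOS3-TG replicate 3 (0.71), as it was for the interferon list. Of the 20 with a probe, Gzma and Ncr1 were not well above background on any TAC array. Macrophage and monocyte markers had a median of 0.13, with 18 of 23 higher, and summed to 45.8 to 66.6 in NOS3-TG and 37.1 to 53.6 in WT. Granulocyte and mast cell markers lay the other way, with 7 of 8 lower and a median of -0.30. Antigen presentation genes had a median of 0.13, with 18 of 20 higher and none called. The part of immune cells in the interferon result was not tested.

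**Figure D3:**
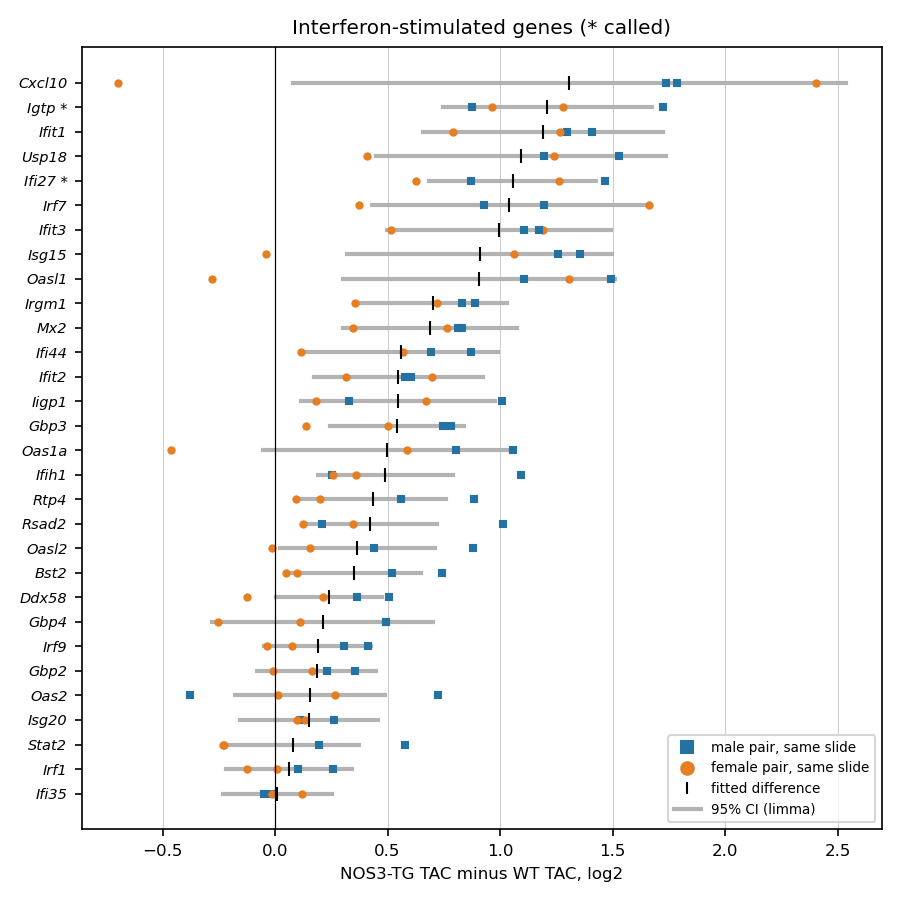
Difference between NOS3-TG TAC and WT TAC (log2) for the measured interferon-stimulated genes, 1 of the 31 left out; squares are the male pair and circles the female pair of each slide, ticks the fitted difference and bars its 95% confidence interval, and a star marks a called gene. All fitted differences shown are above 0, and those of Igtp and Ifi27 have all 4 pairs above 0.

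Promoters of 4 interferon-inducible genes are shown as examples that hold a match, Igtp and Apol9b called and Irgm1 and Ifit1 not. They are again windows of 250 bases up to the start, from RefSeq on GRCm38.p6 and 5′ to 3′ in the gene's direction: Igtp at chr11:58199306-58199555, plus strand; Apol9b at chr15:77728822-77729071, plus strand; Irgm1 at chr11:48871421-48871670, minus strand; Ifit1 at chr19:34640639-34640888, plus strand. Capitals mark an interferon-stimulated response element, GAAA and GAAA with 2 bases between (ISRE), or a gamma-activated site, TTCNNNGAA (GAS), on either strand.
Igtp: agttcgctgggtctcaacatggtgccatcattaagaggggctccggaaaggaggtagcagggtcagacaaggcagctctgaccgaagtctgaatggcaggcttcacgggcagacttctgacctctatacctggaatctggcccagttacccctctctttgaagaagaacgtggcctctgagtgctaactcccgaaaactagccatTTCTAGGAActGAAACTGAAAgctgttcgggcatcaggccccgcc
Apol9b: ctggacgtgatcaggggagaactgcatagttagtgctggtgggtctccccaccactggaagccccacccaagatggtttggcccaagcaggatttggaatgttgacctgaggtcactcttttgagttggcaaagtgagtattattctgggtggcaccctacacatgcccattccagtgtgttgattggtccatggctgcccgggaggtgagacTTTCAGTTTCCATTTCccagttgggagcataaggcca
Irgm1: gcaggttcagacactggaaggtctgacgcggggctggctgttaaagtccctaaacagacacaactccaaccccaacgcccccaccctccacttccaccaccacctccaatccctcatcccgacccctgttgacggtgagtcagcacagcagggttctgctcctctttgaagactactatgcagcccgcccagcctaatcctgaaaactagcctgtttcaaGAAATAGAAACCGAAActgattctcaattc
Ifit1: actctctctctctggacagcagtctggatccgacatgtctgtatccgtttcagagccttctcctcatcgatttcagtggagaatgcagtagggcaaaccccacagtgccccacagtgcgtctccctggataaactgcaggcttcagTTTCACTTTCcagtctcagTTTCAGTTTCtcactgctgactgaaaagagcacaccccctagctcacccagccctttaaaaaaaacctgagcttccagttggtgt
The Igtp window holds a GAS whose first base lies 45 bases before the start and an ISRE 34 bases before it. In Apol9b and Irgm1 a pair of ISRE matches overlap, and in Ifit1 they stand apart, 104 and 85 bases before the start. Of the 23 list members with a window, 12 held an ISRE (52.2%, beside 3.46% of all 27025 genes) and 6 a GAS (26.1% beside 8.13%). The Ifih1 window, not shown, holds neither. A match describes the letters only.

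Downward calls were fewer and mostly small. Cd93, a receptor of endothelial cells, read 3.82, 3.39, 3.83 and 3.67 in NOS3-TG and 4.75, 4.77, 4.49 and 4.98 in WT. The genotypes lay apart on all arrays, and the fall was 1.07 ± 0.19 on the log2 scale (2.1-fold lower, adjusted p = 0.0422), with the other probe at -0.38. Beside it, 20 of 22 endothelial markers were on the lower side, with a median of -0.25 and none called. Their summed level was 348 to 448 in NOS3-TG and 419 to 508 in WT. The part of endothelial content in the Cd93 result was not tested. Depp1, a FOXO-responsive regulator of autophagy, and an unnamed transcript were the other falls over 2-fold. Depp1, picked out after its value was seen, ranged from 0.39 to 1.97 in NOS3-TG and from 1.81 to 3.21 in WT, with an overlap, and differed by -1.40 ± 0.26 (adjusted p = 0.0469).

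Smaller falls without overlap were those of Zfp296, Gpc6, Fam181b, Dubr and 6230424C14Rik, among others. Zfp296, a zinc finger protein gene, read -2.97, -2.68, -3.09 and -2.54 in NOS3-TG and -2.35, -1.66, -2.22 and -1.87 in WT. Its fall of 0.79 ± 0.09 (adjusted p = 0.00624) was the only one called in all 8 fits with a TAC array left out (adjusted p up to 0.0457), but normexp gave -0.31 (adjusted p = 0.426). Gpc6, a cell surface heparan sulphate proteoglycan, differed by -0.64 ± 0.09 (adjusted p = 0.0208), Fam181b by -0.59 ± 0.11 (adjusted p = 0.0463) and Dubr, a noncoding RNA, by -0.40 ± 0.07 (adjusted p = 0.0469). The other probes of Zfp296 and Gpc6 gave -0.03 and -0.14, and stand for their genes where only probes detected on all 16 arrays are tested. The 2 other Dubr probes pointed down too. With single arrays left out, Gpc6 lost the call in 4 fits, Cd93 in 7 (all but the one without WT replicate 3), Depp1 in 6, and Fam181b and Dubr in all 8, at adjusted p up to 0.166.

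Among 28 measured nitric oxide synthases, cofactor enzymes and regulators, Nos3 was the single call (3.57% beside 0.472% of all genes). Nos3 included, 8 of the 28 had an unadjusted limma p under 0.05 (28.6% beside 13.6% of all genes). In 4 of the 28 every NOS3-TG array lay above every WT array, which held for 3.61% of all genes. The median of the list was 0.09. Of the calmodulin genes, whose product NOS3 needs, Calm3 differed by 0.46 ± 0.10 (adjusted p = 0.0921) and Calm2 by 0.26 ± 0.10 (adjusted p = 0.262). Calm3 read 3.64, 3.97, 3.93 and 4.09 in NOS3-TG and 3.43, 3.52, 3.46 and 3.37 in WT, with no overlap. Gch1, the rate-limiting enzyme of tetrahydrobiopterin synthesis, differed by 0.10 ± 0.11 (adjusted p = 0.729), and the caveolins Cav1 and Cav3, which hold NOS enzymes inactive, by -0.25 ± 0.10 (adjusted p = 0.311) and 0.06 ± 0.08 (adjusted p = 0.806).

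Downstream, 1 of 22 cyclic GMP signalling genes was called (4.55% beside 0.472% of all genes). Rgs4, a regulator that switches off G protein signals and is a target of protein kinase G in cardiomyocytes, read -0.72, -1.02, -1.51 and -1.13 in NOS3-TG and -0.26, -0.09, -0.88 and -0.31 in WT. The WT male replicate 3 lay below NOS3-TG male replicate 1, so the groups overlapped, although each pair on a slide fell. The difference was -0.71 ± 0.13 (adjusted p = 0.0469), the other probe gave -0.65, and the call was lost in all 8 single omissions (adjusted p up to 0.171). The guanylate cyclase subunits Gucy1a1 and Gucy1b1 differed by -0.14 ± 0.20 and -0.12 ± 0.11 (adjusted p = 0.82 and 0.694), and the kinase Prkg1 by 0.20 ± 0.17 (adjusted p = 0.654). The list's median was -0.17.

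Immediate early genes, which respond within minutes to stretch, hormones and handling, held no call, but nearly all had a fitted difference below 0. Of 24 measured genes 23 were on the lower side, 14 had an unadjusted p under 0.05 (58.3% beside 13.6% of all genes), 7 lay below WT on every array (1.95% of all genes did), and the median was -0.46. Fosl2, an AP-1 subunit, read -0.94, -0.96, -0.98 and -0.79 in NOS3-TG and -0.15, -0.52, -0.16 and -0.14 in WT. The NOS3-TG arrays were tightly grouped below, and the difference was -0.67 ± 0.13 (adjusted p = 0.0618). Zfp36, which speeds the decay of cytokine messengers, differed by -0.68 ± 0.14 (adjusted p = 0.0724), Ier5 by -0.49 ± 0.10 (adjusted p = 0.0665) and Atf3, a stress-induced repressor, by -0.93 ± 0.26 (adjusted p = 0.152). Fosb was the exception, at 0.45 ± 0.29. Summed levels of the list were 155 to 198 in NOS3-TG and 209 to 256 in WT, with no overlap. The median stayed between -0.58 and -0.35 over the 23 settings, and at most 3 members were called in any of them.

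Of 34 p53 targets, apoptosis and autophagy genes, 2 were called, 5.88% beside 0.472% of all genes. Of 39 heat shock, ER stress and amino acid response genes, 0 were called. Gadd45a, a growth arrest gene induced by DNA damage, read 1.85, 1.43, 2.55 and 1.84 in NOS3-TG and 1.05, 0.76, 1.69 and 0.63 in WT. The groups overlapped at WT male replicate 3, and the difference was 0.89 ± 0.15 (adjusted p = 0.0394). Mean levels of Gadd45a after TAC were 1.92 in NOS3-TG and 1.03 in WT, beside 1.88 and 1.93 in intact mice, whose arrays were on other slides. Bcl2, which holds apoptosis in check, differed by 0.55 ± 0.10 (adjusted p = 0.0469) with an overlap as well. The list of p53 targets, apoptosis and autophagy genes to which they belong had a median of 0.03 over 34 genes. Gadd45a kept its call in 2 and Bcl2 in none of the 8 single omissions (adjusted p up to 0.118 and 0.127).

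Genes that mark pressure overload showed no called difference between the loaded genotypes. Nppb, the B-type natriuretic peptide gene, ranged from 7.33 to 7.86 in NOS3-TG and from 6.87 to 7.78 in WT, with an overlap. The difference was 0.17 with a 95% interval from -0.49 to 0.83 (adjusted p = 0.864). For Nppa it was 0.18 (-0.69 to 1.06), for the skeletal actin gene Acta1 0.27 (-0.49 to 1.04), for the alpha- and beta-myosin genes Myh6 and Myh7 -0.06 (-0.33 to 0.21) and -0.05 (-0.54 to 0.44). The calcium pump gene Atp2a2 differed by -0.13 (-0.42 to 0.16) and its inhibitor Pln by 0.09 (-0.15 to 0.33). These intervals leave room for changes of up to about 1 log2 unit in Nppa and Acta1 and of under 0.5 log2 units in Myh6, Atp2a2 and Pln. In the wider fetal programme list 15 of 31 genes were higher, none called, with a median of -0.01.

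Genes of connective tissue lay mostly on the lower side, again without a call. The fibrillar collagen genes Col1a1 and Col3a1 differed by -0.30 (-0.70 to 0.09) and -0.27 (-0.75 to 0.21), the fibroblast matricellular gene Postn by -0.49 (-1.43 to 0.45) and Ccn2 by -0.38 (-1.24 to 0.47). Postn read 5.52, 3.14, 4.63 and 4.15 in NOS3-TG and 5.30, 3.50, 4.97 and 5.62 in WT, a spread within each genotype that exceeded the difference. Of 27 collagen chains 24 were lower (median -0.25), of 21 crosslinking and processing genes 20 (median -0.18) and of 43 elastic fibre, matricellular and proteoglycan genes 38 (median -0.27). Of all genes 48.3% were lower. Over the 23 settings these 3 medians ran from -0.44 to -0.08, from -0.30 to -0.07 and from -0.38 to -0.17. Of 22 fibroblast markers 18 were lower (median -0.23), with summed levels of 494 to 606 in NOS3-TG and 534 to 670 in WT. The collagen median was -0.13 in males and -0.46 in females. At most 39.1% of any matrix list had an unadjusted p under 0.05, for metalloproteinases and their inhibitors, and 18.5% of the collagens did.

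None of the cell cycle genes was called. Their median was -0.31 over 38 genes, 0.28 in males and -1.15 in females, and 0.11 on one slide and -0.91 on the other. Mki67, a marker of dividing cells, read 1.23, -0.27, 1.34 and 0.19 in NOS3-TG and 1.47, 0.66, 1.58 and 2.55 in WT, with the WT female replicate 4 far above the rest. Depending on the setting, the list's median ranged from -0.82 to 0.11. Medians of energy metabolism lay near 0. Fatty acid oxidation had a median of -0.01 over 40 genes, oxidative phosphorylation -0.04 over 75 and pyruvate oxidation with the tricarboxylic acid cycle -0.04 over 31. In the same order they were -0.15, -0.18 and -0.24 in males and 0.15, 0.13 and 0.13 in females. Medians of all genes were -0.03 and 0.06. Over the 23 settings, 22.5% to 80% of the fatty acid genes and 13.3% to 72% of the oxidative phosphorylation genes were positive. None of these genes was called, and within oxidative phosphorylation none had an unadjusted p under 0.05.

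**Figure D4:**
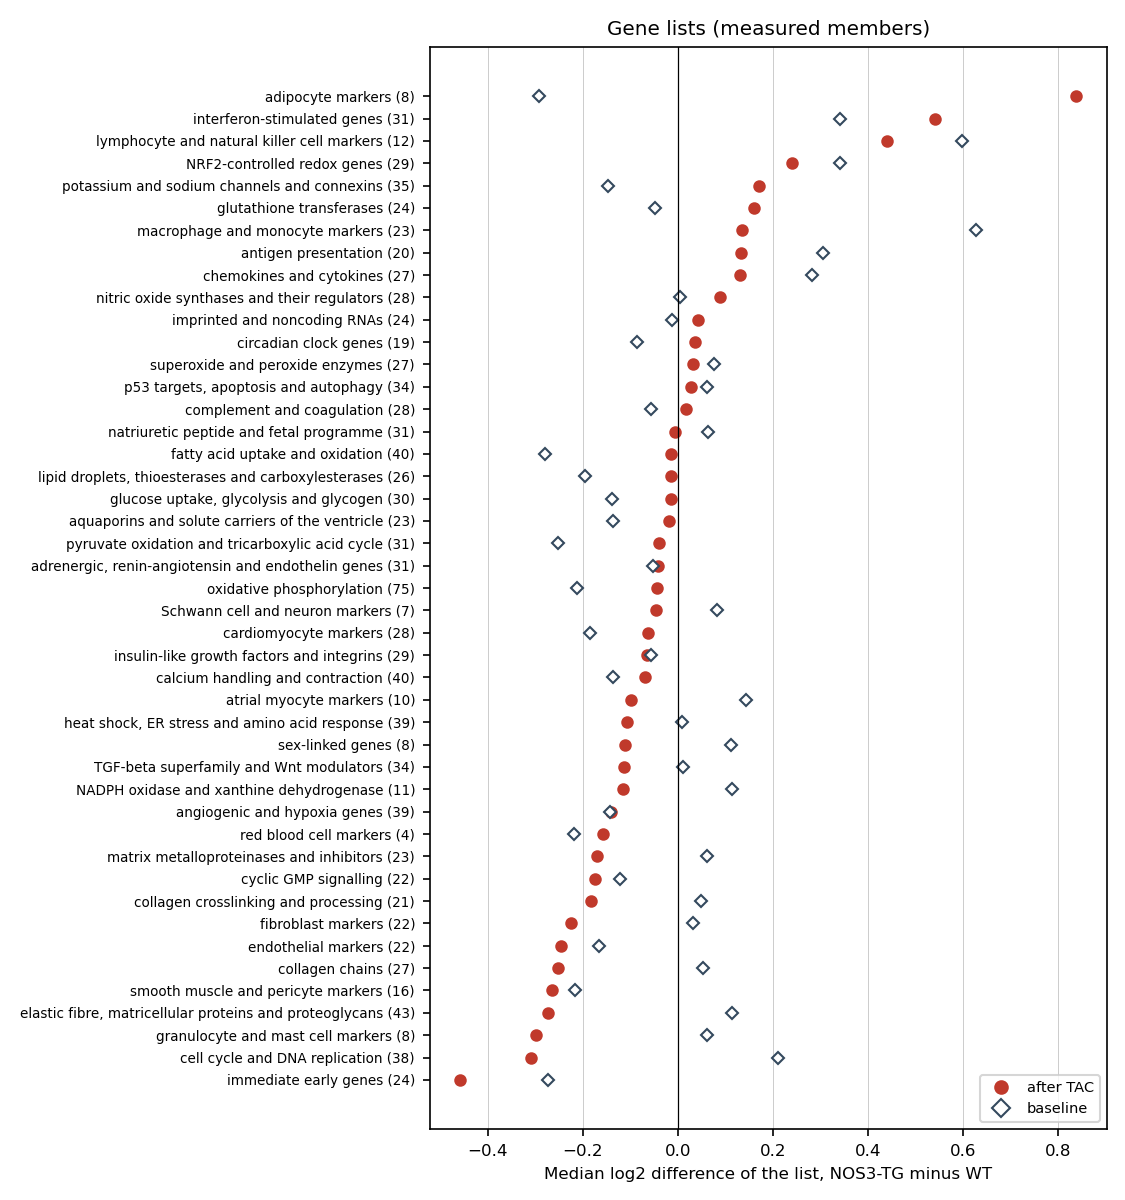
Median log2 difference between NOS3-TG and WT for each gene list, with the number of measured genes, after TAC (filled circles) and in intact mice (open diamonds). Interferon-stimulated genes (0.54) and immediate early genes (-0.46) lie far from 0 after TAC and on the same side in intact mice, while adipocyte markers (0.84 after TAC) rest on few genes.

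Markers of the tissue were as labelled. All 28 cardiomyocyte markers were well above background on at least 1 TAC array, summed to 4153 to 5116 in NOS3-TG and 4188 to 5420 in WT, and had a median of -0.06 with none called. That median was -0.30 in males and 0.16 in females. Adipocyte markers had the widest median of all lists, 0.84 over 8 genes, with Lep and Ucp1 not well above background, although the summed level was 276 to 351 in NOS3-TG and 351 to 398 in WT. NOS3-TG replicate 1 stood highest (mean deviation 1.24), and without it the median was 0.37. None was called, and over the 23 settings the median ran from -0.24 to 1.37. Smooth muscle and pericyte markers had a median of -0.27, granulocyte and mast cell markers -0.30, and atrial myocyte markers -0.10.

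The intact mice share no array with the TAC groups, but both contrasts come from one fit with a common variance per gene, so their calls are not independent. There, 109 genes were called (0.696%), 84 higher and 25 lower. Of the 74 genes called after TAC, 29 were also called at baseline, which is 39.2% of the TAC calls and 26.6% of the baseline calls. By sign, 67 of the 74 were the same in both conditions, beside 55.7% of all genes, and 53 had an unadjusted p under 0.05 at baseline, beside 14.0% of all genes. The shared ones included Nos3 (6.58 at baseline), Snhg11 (6.36), Gsta2 (3.74), Gsta1 (3.33), Mei1 (2.67), BC023105 (2.56), Krtap6-1 (2.51), Snrpn (1.81), Slc24a2 (1.73), Igtp (1.36), Cd93 (-1.45) and Zfp296 (-0.71). Called after TAC alone were, among others, Kctd19 (0.81 at baseline), Gstm2 (0.61), Gstm3 (0.67), Gadd45a (-0.05), Bcl2 (0.05) and Ryr3 (-0.51). A call in one condition and not in the other does not show that the conditions differ, and the test of that difference follows.

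**Figure D5:**
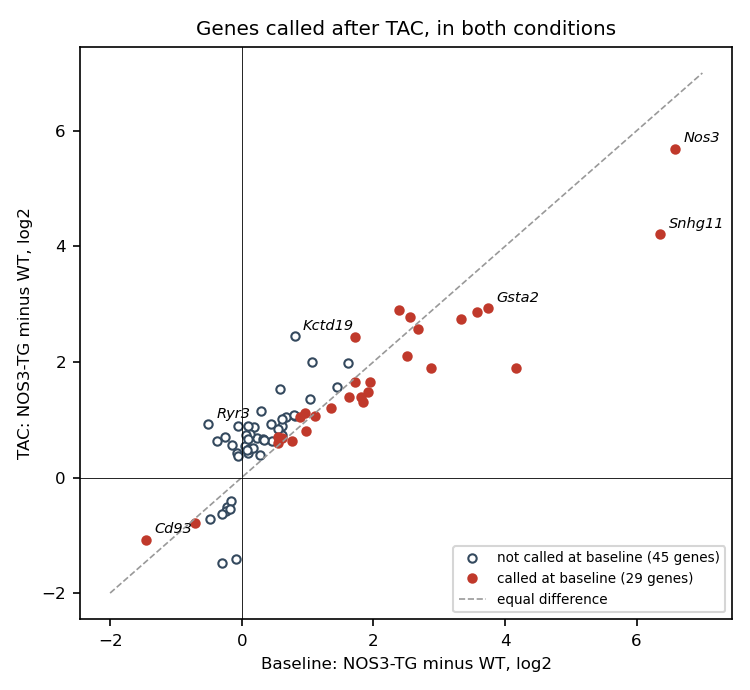
Genotype difference (NOS3-TG minus WT, log2) of the 74 genes called after TAC, in intact mice (x axis) and after TAC (y axis); filled points are also called at baseline and the dashed line marks equal differences. The 29 filled points lie in the lower left and upper right, and Ryr3 is among the 7 genes whose sign differs between conditions.

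No gene passed the test of whether the genotype difference changed with load (limma, genotype by condition interaction, 0 called, 1340 genes with an unadjusted p under 0.05, 8.55%). The intensity-trend variant called 1 gene, and 2 were called when only probes detected on all 16 arrays were tested. The smallest p values belonged to Ier5, Ryr3 and Mt4, none passing. Ier5, an immediate early gene, was lower by 0.49 after TAC and higher by 0.59 in intact NOS3-TG hearts, an interaction of -1.08 (adjusted p = 0.111). Its loaded arrays read 4.76, 5.06, 4.92 and 5.17 in NOS3-TG and 5.43, 5.43, 5.56 and 5.45 in WT. For Ryr3 the interaction was 1.43 (adjusted p = 0.111) and for Mt4, a dim metallothionein gene, 1.01 (adjusted p = 0.303). Nos3 itself had an excess lower by 0.89 after TAC than in intact mice, which did not pass either (adjusted p = 0.482). Of the 74 called genes, 32 had an unadjusted interaction p under 0.05.

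Nor did any gene pass the test of whether the genotype difference after TAC depended on sex (0 called, 1241 with an unadjusted p under 0.05, 7.92%). With only 2 arrays per sex and genotype this test is imprecise, and leaving out WT replicate 2 gave 25 calls, NOS3-TG replicate 3 gave 1 and WT replicate 3 gave 1. The smallest p values were those of LOC239017, Iglon5 and the transcript TC1502405 (each adjusted p = 0.181), all dim. Iglon5 differed by -0.72 in males and 0.64 in females, and was well above background on 1 of the 8 TAC arrays.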

How the data were processed

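The members, gene lists and naming rule were chosen with earlier results of these data known. The deposited intensity of a spot is its processed signal, background-subtracted and detrended within the array per the file headers; the submitters' processing notes name Agilent Feature Extraction 9.5.1.1. The deposited table of log2 values (22057 probes; column medians 9.95 to 9.99, r of at least 0.9996 with the processed signal of the same array) served as an alternative; how the authors normalized it is unknown here. Control and outlier spots were dropped, log2 signals were scaled to each array's 75th percentile, and 245 probes with 10 spots were averaged. A probe was kept when well above background on 4 of 16 arrays, and the brightest probe stood for its gene; 22951 of 41174 probes were named by accession and 9768 by symbol through RefSeq (GRCm38.p6), while 8455 stayed under their file name.

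Limma 3.58.1 (R 4.3.3) fitted the 4 groups over 16 arrays with sex and with slide as a block within condition. Calls are two-sided at an adjusted p under 0.05; the spread is that between animals, per the labels. The code was tested on simulated data. Replicates were numbered in accession order within a group. Named were Nos3, 11 fixed overload and matrix genes, the 12 largest called rises and 12 largest falls without overlap (fewer where fewer passed), up to 4 called members per list, and the 3 smallest p per interaction when fewer than 3 passed. Some members short of the threshold are named as examples, after their values were seen. No named gene lacked a value on a TAC array. The values of a few single genes are not reported here; they stay in the counts.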

Additional observations from a re-analysis of the deposited data

Results flagged for a closer look

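Of 92 groups of 4 arrays examined, 4 had one array far from the other 3 by Dixon's criterion, and chance gives about 1 in 20. In loaded NOS3-TG, BC023105 read -1.61 on male replicate 3, above the other 3 arrays. In loaded WT, Gstm3 read 6.09 on female replicate 2, above the rest, and Snrpn read 0.93 on female replicate 4, below the rest. The share of probes well above background was 51.29% on WT female replicate 4, below the 52.3% to 52.5% of the other 3.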

How the results depend on the processing

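Of the 74 genes called after TAC, Nos3 alone kept its call under every setting, and 71 kept their sign. The count was 25 with normexp background correction, 6 with no filter on dim probes, 47 with a gene's probes averaged, 44 with no slide block, 19 with no sex term, 2 from the 8 TAC arrays alone, 40 with array weights and 3 without NOS3-TG TAC replicates 3 and 4. It was 7 to 45 with 1 TAC array left out, and 64 to 98 under the other settings. At baseline the 109 calls became 28 with normexp, 32 with no filter, 65 with no slide block, 71 with no sex term, 57 without NOS3-TG TAC replicates 3 and 4, and 75 to 129 with 1 TAC array left out. The interaction with condition had 2 calls from probes above background on all 16 arrays, 1 with the intensity trend and 0 otherwise; the interaction with sex had 0 to 25 with 1 array left out. The Nos3 difference stayed between 5.59 and 5.82.

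Signs of uncalled differences near 0 turned. With array weights Nppb was -0.074, and without NOS3-TG TAC replicates 3 and 4 Col3a1 was 0.017. With 1 TAC array left out, Nppb ran from -0.059 (without WT replicate 2) to 0.331, Myh6 from -0.171 to 0.063 and Myh7 from -0.134 to 0.051 (both above 0 without NOS3-TG or WT replicate 3, at 0.0027 and 0.014 for the former), Pln from -0.00463 (without WT replicate 4) to 0.171 and Col3a1 from -0.469 to 0.056 (without WT replicate 4). The causes were not tested. The labels give no replicate numbers, but each TAC slide holds 1 array of each genotype and sex. With that pair as a block, a fit added after the data were seen, 60 genes were called after TAC, 76 at baseline and 0 for the interaction, and the Nos3 difference was 5.69. The number of arrays limits the precision, and for dim probes the signal over background does.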
